A study of Rattus norvegicus with 28 samples.

Results

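Gene expression was compared between neural progenitor cell samples exposed to uninjured spinal cord and labelled 4 weeks, and neural progenitor cell samples kept under culture conditions, both from rat. The comparison was defined by the group labels of its samples. It holds 8 of the 28 libraries of the series, 4 exposed and 4 in culture. The label of the exposed group names spinal cord and no injury, and the group was read as uninjured. The labels name no strain, age, sex, transgene or agent for either group. The way the cells met the cord, the start of the 4 weeks and any separation of the cells from cord tissue are not stated there. Nor is it stated that the 4 samples of a group are separate animals or cultures, so p-values reflect the spread among these samples alone, which may be technical.

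Neural progenitor cells are dividing cells of the nervous system that can be grown in culture and can give rise to neurons, astrocytes and oligodendrocytes. In the uninjured adult spinal cord such cells meet a mature tissue of neurons, myelin-forming cells, astrocytes, microglia and vessels, and grafted progenitors are known to leave the cell cycle and differentiate there to varying degrees. The design sets samples labelled as exposed to spinal cord against the same labelled cell type kept under culture conditions. The labels do not state that the cord was adult or that the cells were grafted. The files do not pair their Ensembl identifiers with gene names, and 0 of the 32545 identifiers matched the gene table used here. The labelled cell type was therefore not checked against its markers, genes of astrocytes, myelin, neurons or the cell cycle could not be picked out, and genes are given by identifier with no known role attached. In bulk samples fewer cells of a type and less RNA per cell cannot be told apart, and RNA of cord tissue carried along cannot be told apart from a change within the progenitor cells.

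The week 4 libraries held 2605188 to 4449811 counts and the culture libraries 5273204 to 6908508, so that depth and exposure coincide. The shallower group nevertheless detected more genes. At least 1 count was found for 17623, 17704, 20098 and 18302 genes in exposed replicates 1 to 4, and for 17030, 16986, 16867 and 17359 genes in culture replicates 1 to 4. All 4 exposed libraries lay above all 4 culture libraries. Set to the smallest total of the 8, the expected numbers were 16629.7 to 20098 genes in the exposed group and 15632.7 to 15777.6 in culture. For 396 genes every library of 1 group had a count and no library of the other did, and in 292 of them the exposed group was the one with counts.

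Replicate 3 of the exposed group stood apart from its 3 companions. It had the lowest total and the most genes detected. It alone among the 4 exposed libraries counted 1951 genes, against 641, 645 and 844 for replicates 1, 2 and 4. These genes had a median of 1 count and made up 0.127% of its counts, and 1366 of the 1951 had 0 counts in all culture libraries. On the first principal component, which held 88.6% of the variance of log2 CPM (counts scaled to a common library total of 1e6), replicate 3 lay at 79.7 and the other exposed libraries at 105.7 to 109.4, with culture at -103 to -99.8. On the second component, with 4.02% of the variance, it lay at 53.9 and the other exposed libraries between -20.5 and -12.2. Its mean Spearman correlation with the culture libraries across genes was 0.714, against 0.663 to 0.683 for the other 3, and with its own group it was 0.955, against 0.964 to 0.968. Counts of single pairs of libraries showed another grouping. The chi-square per degree of freedom over genes was 8.35 between exposed replicates 1 and 3 and 7.87 between replicates 2 and 4, but 15.5 to 16.7 for the other 4 pairs, against 5.69 to 7.97 within culture. The labels name nothing that replicates 1 and 3, or 2 and 4, share, and whether the 4 are independent cannot be read from them. The part that the extra genes of replicate 3 play in any difference was not tested, and results without that library are given with the comparison.

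**Figure D1:**
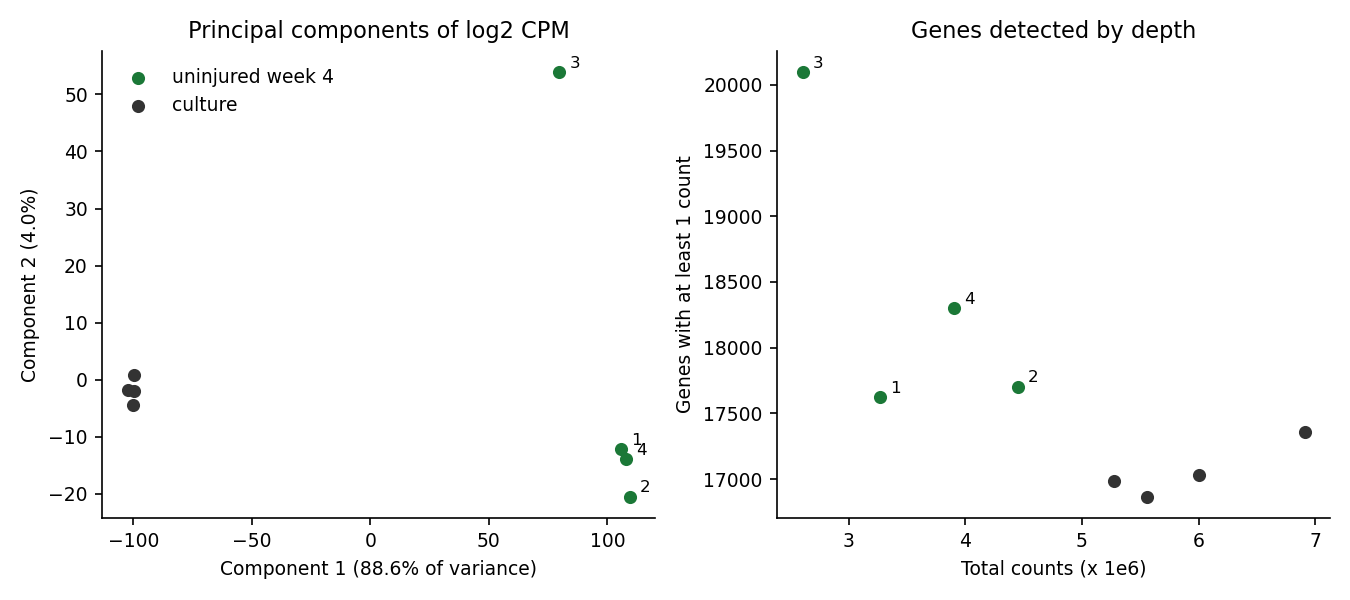
Left, the first 2 principal components of log2 CPM over the 12923 genes tested, with 1 point for each library, green for uninjured week 4 (numbered by replicate) and black for culture. Right, the number of genes with at least 1 count against the library total in units of 1e6 counts. The groups separate on the first component, and exposed replicate 3 stands at 53.9 on the second with 20098 genes from the lowest total.

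Exposed libraries varied more among themselves than culture libraries did. Over the genes tested, the common biological coefficient of variation was 23.2% within the exposed group (n = 4) and 9.95% within culture (n = 4). It was 20.4% for the exposed group without replicate 3, still above culture. Uninjured week 3 and injured week 4 libraries had 23.6% and 22.0% (n = 4 each), so a spread of that size was found in each of these 3 cord groups. No test of these differences in spread was made.

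A large part of the genes tested differed between uninjured cord at week 4 and culture. Of 12923 genes, 8931 passed the test (edgeR quasi-likelihood test on the 8 libraries, Benjamini-Hochberg adjusted p under 0.05), which is 69.1% of those tested. Of these, 4436 genes (34.3% of those tested) were higher in the exposed samples and 4495 (34.8%) were lower, so the calls were close to evenly divided. The median log2 fold change of all tested genes was -0.03. Without exposed replicate 3 the count was 9159, with 4628 higher and 4531 lower. The fit treats the spread as equal in both groups, and with a spread for each group (limma voom, chosen after the data were seen) the count was 8816, with 4359 higher and 4457 lower. The count fell to 5708 of 12923 in a test against a fold change of 1.5 (3086 higher and 2622 lower) and to 4734 of 13865 with all 7 groups in 1 fit (2532 higher and 2202 lower). The balance does not show that as much RNA was gained as lost, since the counts are relative to each library's total. The scaling of the libraries also centres most genes near 0, so the median and the even split partly follow from it. Upper quartile factors gave 4242 higher and 4752 lower genes, and RLE factors 4534 and 4372. With no low count filter 5812 genes were higher and 4845 lower, and the median log2 fold change was 0.447.

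Large rises were more frequent than large falls. Among the genes called higher, 2861 rose at least 2-fold, 1599 at least 4-fold, 677 at least 16-fold and 180 at least 64-fold. Among those called lower, 2342 fell at least 2-fold, 1047 at least 4-fold, 278 at least 16-fold and 39 at least 64-fold. Genes with 0 counts in 1 group entered these counts at the lower bound that a floor of 3 counts over the group allows. A rise of at least 16-fold thus made up 15.3% of the higher genes, and a fall of that size 6.18% of the lower ones. The median log2 fold change was 1.38 for higher genes (quartiles 0.78 and 2.85) and -1.04 for lower genes (quartiles -0.64 and -1.90). Both medians were the same with genes at 0 put at their bound. That step could hardly move them, since only 43 higher and 9 lower genes had 0 counts in 1 group. The 2 groups did not overlap in CPM for 3903 of the 4436 higher and 4188 of the 4495 lower genes, where 64.1% of all tested genes did not overlap.

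**Figure D2:**
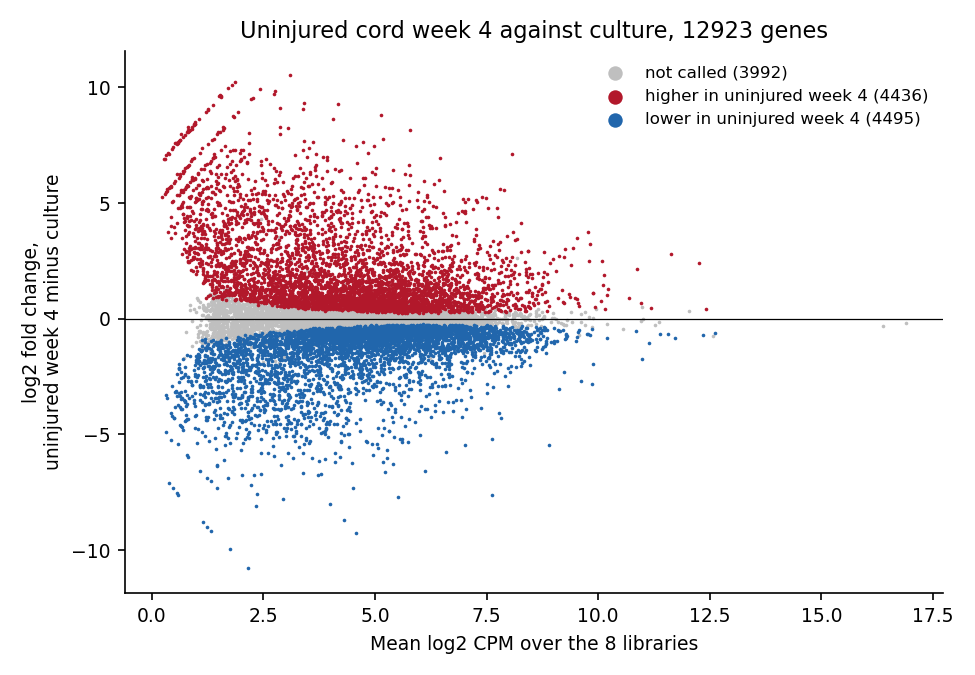
Each point is 1 of 12923 genes, placed by its mean log2 CPM over the 8 libraries and by its log2 fold change, uninjured week 4 minus culture. Red points (4436) were called higher in the exposed samples, blue points (4495) lower, and grey points (3992) were not called. Points beyond a log2 fold change of 4 are more frequent above 0 than below it.

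Some of the genes called had no count in 1 of the groups. Among the higher genes 43 had 0 counts in all 4 culture libraries, and among the lower genes 9 had 0 counts in all 4 exposed libraries. All 43 and all 9 such genes that passed the low count filter were called, which the filter makes likely, since a gene at 0 in 1 group passes only through its counts in the other. The floor of 3 counts over the group is 0.126 CPM in culture and 0.211 CPM in the exposed group, which is the level that 0 counts still allow in each, for counting error only.

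Calls were spread over the whole range of expression. Rises were more frequent than falls among genes of low mean level and falls among genes of high mean level. Between a mean log2 CPM of 0 and 2, 651 of 1594 genes were higher (40.8%) and 445 lower (27.9%). Between 2 and 4, 1308 of 3881 were higher (33.7%) and 1189 lower (30.6%). The shares were nearly level between 4 and 6, with 34.6% of 4771 genes higher and 35.8% lower. Between 6 and 8, 703 of 2307 genes were higher (30.5%) and 997 lower (43.2%), and at 8 and above 33.5% of 370 genes were higher and 42.2% lower. Large differences sat mainly among genes of low mean level. A fitted log2 fold change of at least 4 in either direction was found for 366 of the 1594 genes between 0 and 2, and for 3 of the 370 genes at 8 and above. The mean is taken over both groups, so a gene close to absent in either group has a lowered mean whatever its level in the other. This contrast therefore cannot show that genes with large differences are weakly expressed where they are present.

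**Figure D3:**
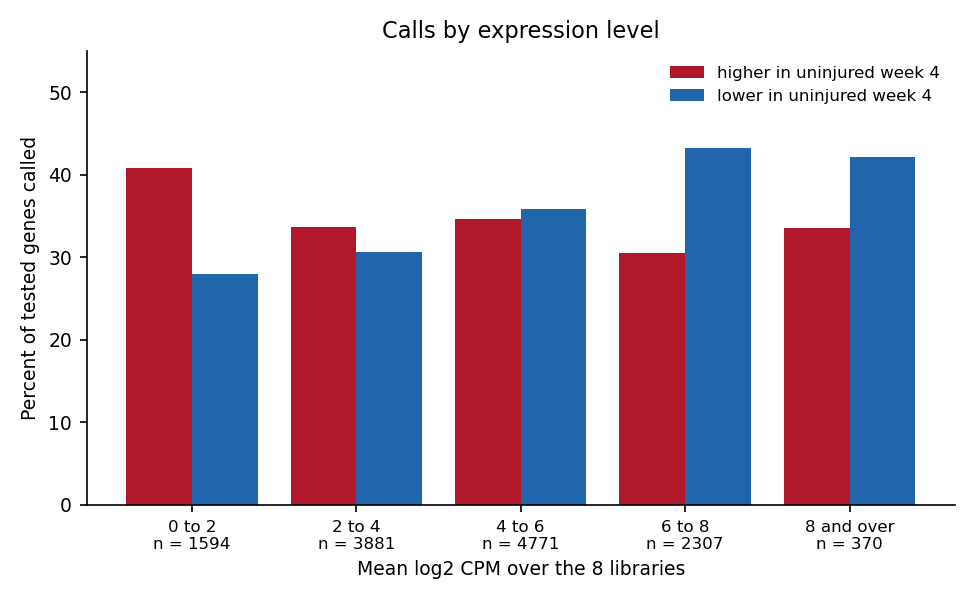
Bars give the percent of tested genes called higher (red) or lower (blue) in uninjured week 4 than in culture, by mean log2 CPM over the 8 libraries, with the number of genes tested under each pair. Higher calls lead at 0 to 2 (40.8% against 27.9%) and lower calls lead at 6 to 8 (43.2% against 30.5%).

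Single genes are shown through the 2 that rose most and the 2 that fell most. They were taken from called genes whose groups did not overlap and whose mean log2 CPM was 4 or more, a rule met by 2161 higher and 2735 lower genes. They were chosen on the 8 libraries compared, so the size of their change is a property of that choice, and so in part is any later difference that uses the same week 4 libraries.

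ENSRNOG00000004575 was close to absent in culture, at 0.333, 0.569, 0.900 and 0.434 CPM in replicates 1 to 4, from 13 counts in all. In the exposed samples it stood at 317.8, 422, 244.9 and 402.5 CPM. Every exposed library was far above every culture library, with replicate 3 the lowest of them. This is a log2 fold change of 9.28 (standard error 0.29, edgeR adjusted p = 1.1e-10).

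ENSRNOG00000004649 had the same pattern at a higher level. Culture libraries held 0.999, 2.28, 1.08 and 1.74 CPM, and exposed libraries 501.5, 804.8, 468.3 and 907.8 CPM. Exposed replicates 2 and 4 were above replicates 1 and 3, and none came near culture. The fitted difference was 8.80 log2 units (standard error 0.33, edgeR adjusted p = 3.92e-10).

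ENSRNOG00000002369 was well expressed in culture, at 531.1, 572.7, 595.4 and 468 CPM in replicates 1 to 4. In the exposed samples it had 1, 7, 4 and 0 counts, or 0.306, 1.57, 1.54 and 0 CPM. The groups lay far apart, and exposed replicate 4 had no count. The fitted log2 fold change came to -9.25 (standard error 0.34, edgeR adjusted p = 2.4e-10).

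ENSRNOG00000008223 likewise fell from 423.1, 373.2, 426.7 and 381.1 CPM in culture. The exposed libraries held 0, 4, 9 and 0 counts, which is 0, 0.899, 3.45 and 0 CPM. Replicate 3 gave most of what remained. Its log2 fold change was -8.69 (standard error 0.43, edgeR adjusted p = 6.05e-09). Without replicate 3 it was -10.0, and those of the other 3 genes without that library were 9.47, 9.0 and -9.49 in the order given above.

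The 4 genes were then followed through the other cord groups. For ENSRNOG00000004575 the means were 346.8 ± 81.6 CPM in uninjured week 4 and 436.8 ± 113.2 CPM in uninjured week 3 (SD, n = 4 each), which overlapped (log2 fold change week 4 minus week 3 -0.28, standard error 0.24, edgeR adjusted p = 0.491). Injured cord at week 4 was lower, at 56.8 ± 17.0 CPM (SD, n = 4), with no overlap (log2 fold change uninjured minus injured 2.5, standard error 0.24, edgeR adjusted p = 7.93e-07). Injured week 3 was lower again at 8.25 ± 3.96 CPM (SD, n = 4), and culture lowest of the 7 groups. In the shallow week 2 libraries it had 212.8 ± 30.8 CPM without and 315.1 ± 119.4 CPM with injury (SD, n = 4 each), from 236 and 426 counts.

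ENSRNOG00000004649 averaged 670.6 ± 218.9 CPM in uninjured week 4 and 362.2 ± 141.8 CPM in uninjured week 3 (SD, n = 4 each). The libraries of the 2 weeks overlapped, with a log2 fold change week 4 minus week 3 of 0.94 (standard error 0.29, edgeR adjusted p = 0.0761). This passed with DESeq2 (adjusted p = 0.0214) and in the edgeR fit with no low count filter (0.0084). Over all alternatives the range was 0.0084 to 0.789, the highest from the test against a fold change of 1.5. The fit with no low count filter gave far lower values against culture too. There this gene had an edgeR adjusted p of 2.62e-246, where the main fit gave 3.92e-10. Its 0.0084 is therefore not read as support. Injured week 4 stood at 285.7 ± 91.7 CPM (SD, n = 4), below all uninjured week 4 libraries, with a log2 fold change uninjured minus injured of 1.11 (standard error 0.29, edgeR adjusted p = 0.00584). This call was lost in a test against a fold change of 1.5 (edgeR adjusted p = 0.0549). The range was 5.3e-05 to 0.0549 over the alternatives, the lowest from the fit with no low count filter. The injured week 4 libraries (159.6 to 367.6 CPM) did overlap those of uninjured week 3 (249.3 to 567.4 CPM) and uninjured week 2 (175.2 to 464.1 CPM). Injured week 3 had 51.1 ± 22.7 CPM (SD, n = 4). At week 2 the means were 319 ± 140.7 CPM without and 605.6 ± 202.5 CPM with injury (SD, n = 4 each).

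The 2 genes that fell were also near 0 in uninjured week 3. ENSRNOG00000002369 had 1 count over the 4 libraries of that group. In injured cord it had 35.5 ± 16.8 CPM at week 3 and 1.35 ± 0.965 CPM at week 4 (SD, n = 4 each). ENSRNOG00000008223 had 2 counts over uninjured week 3, 9.48 ± 2.90 CPM in injured week 3 and 2.84 ± 1.36 CPM in injured week 4 (SD, n = 4 each). Both were below the low count filter in the comparisons of uninjured week 4 with uninjured week 3 and with injured week 4 and were not tested there. At week 2 they had 3 and 2 counts without injury and 8 each with it, which is too few for a level.

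**Figure D4:**
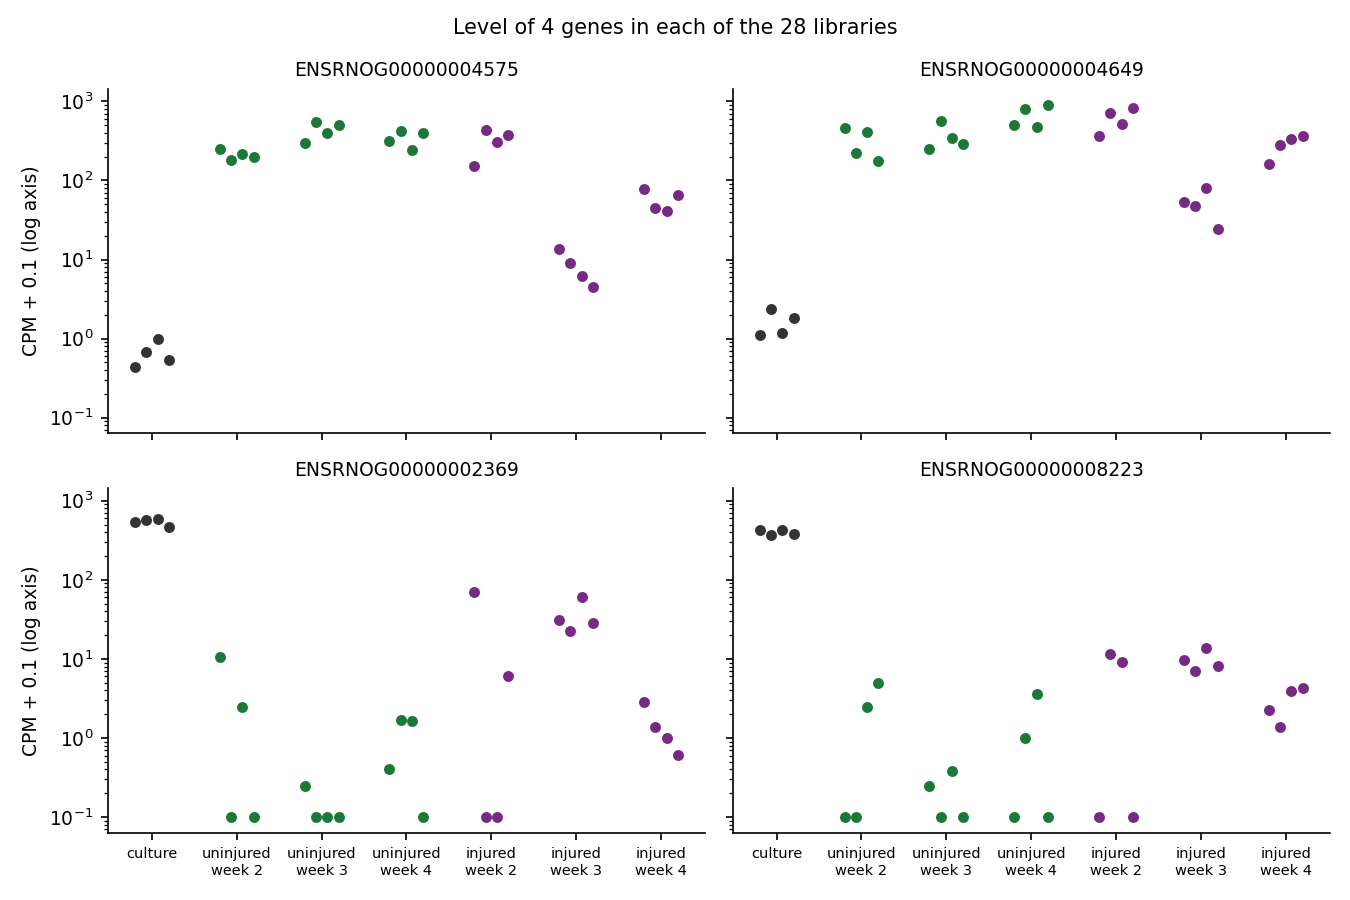
Each panel gives 1 gene, with 1 point for each of the 28 libraries by group (black culture, green uninjured, purple injured) and CPM plus 0.1 on a log axis, so that libraries with 0 counts lie at the bottom. The upper genes are lowest in culture and intermediate in injured weeks 3 and 4, and the lower genes are highest in culture.

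The genes called between uninjured week 4 and culture were also read as a share of each library's counts. In culture the 4436 higher genes held 14.5% ± 0.823 of counts and in uninjured week 4 they held 42.4% ± 2.14 (SD, n = 4 each). The 4495 lower genes went from 42.7% ± 0.875 to 19.5% ± 1.0 (SD, n = 4 each). These 4 values describe the libraries on which the genes were chosen, and they depend on which genes were called. With DESeq2 the 4310 lower genes held 52.1% in culture and 26.9% in uninjured week 4, and the 4504 higher genes 15.7% and 43.8%. The share of the lower genes in culture moved by its SD or more in 15 of 19 alternatives (22.8% to 52.1%). For the genes called against a fold change of 1.5 the higher genes went from 7.64% to 32.5% and the lower genes from 24.9% to 7.85%, and for those called with all 7 groups in 1 fit from 5.61% to 28.1% and from 22.8% to 7.54%. Exposed replicate 3 had the lowest share of the higher genes, 40.0%, and the highest share of the lower genes, 20.9%, but lay close to the other 3, at 42.0% to 45.2% and 18.7% to 19.5%.

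The remaining groups were not used to choose the genes. Uninjured week 3 libraries lay near uninjured week 4, with 45.6% ± 1.54 in the higher and 20.6% ± 1.16 in the lower genes (SD, n = 4 each). Injured week 4 libraries lay between culture and uninjured weeks 3 and 4, with 27.6% ± 1.96 and 27.4% ± 2.05 (SD, n = 4 each), and overlapped none of these groups. In the higher genes they did overlap uninjured week 2, whose replicate 2 held 27.8%. Injured week 3 lay near culture. Its replicates 1, 2 and 4 held 17.1%, 17.2% and 17.5% of counts in the higher genes and 38.7%, 38.2% and 41.3% in the lower genes. Replicate 3 of that group, which detected only 11544 genes, had 23.8% and 47.2%. Week 2 libraries, with at most 446331 counts, held 27.8% to 38.3% in the higher genes without injury and 34.2% to 38.5% with it, and 19.1% to 21.3% and 20.5% to 21.9% in the lower genes. Unlike at weeks 3 and 4, the 2 conditions overlapped at week 2 for both shares. No test was run on these shares.

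**Figure D5:**
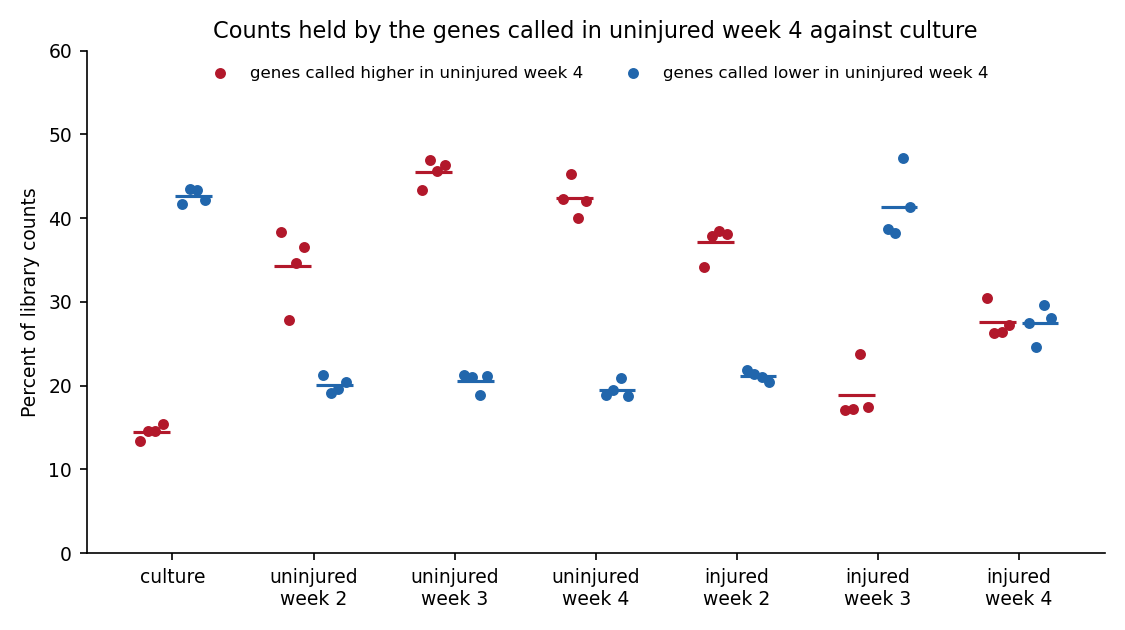
Points give each of the 28 libraries' percent of counts from the genes called higher (red) or lower (blue) in uninjured week 4 than in culture, and lines give group means. Injured week 3 sits near culture, uninjured week 3 near uninjured week 4, and injured week 4 between them at 27.6% and 27.4%.

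Median levels were close in placement. The median higher gene had 11.5 CPM in culture, 15.3 in injured week 3, 21.0 in injured week 4, 34.7 in uninjured week 4 and 36.9 in uninjured week 3. The median lower gene had 42.5 CPM in culture, 42.9 in injured week 3, 24.2 in injured week 4, 17.7 in uninjured week 4 and 17.0 in uninjured week 3. In the shallow week 2 libraries the median higher gene had 29.8 CPM without and 30.9 with injury, and the median lower gene 18.4 and 19.0. These are medians over genes of group means, given as a description.

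To see what sets week 4 in uninjured cord apart, its 4 libraries were tested against 2 other cord groups, each pair fitted alone. Both tests share the uninjured week 4 libraries with the comparison to culture, so the lists of genes were not intersected. Against injured cord at week 4, 4903 of 12117 genes differed (40.5%; edgeR adjusted p under 0.05). Of these, 2617 were higher in uninjured cord (21.6%) and 2286 lower (18.9%). The count was 2649 against a fold change of 1.5 (1582 higher and 1067 lower) and 2396 of 13865 with all 7 groups in 1 fit, where 1512 were higher and 884 lower, or 63.1% higher against 53.4%. Here too large rises were more frequent, with 339 genes at least 16-fold higher in uninjured cord against 57 lower by as much.

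Against uninjured cord at week 3, 435 of 11726 genes differed (3.71%; edgeR adjusted p under 0.05), 225 higher at week 4 (1.92%) and 210 lower (1.79%). None of the 435 differed by at least 16-fold, and a 4-fold difference was reached by 18 of the higher and 3 of the lower genes. The count depended on single libraries. It was 155, 48, 2281 and 1 without replicates 1, 2, 3 and 4 of week 3. Without replicates 1, 2, 3 and 4 of week 4 it was 64, 509, 44 and 73. With upper quartile factors 296 of 403 calls were higher at week 4. The number of genes called between weeks 3 and 4 of uninjured cord was thus not stable in these libraries. The sets of genes called were not compared. An unadjusted edgeR p under 0.05 was found for 2946 genes, and for 2029 to 4132 when leaving out each library. The low counts at the adjusted threshold therefore do not show that the 2 weeks were alike.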

How the data were processed

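RNA was sequenced from 28 samples labelled as neural progenitor cells. Trizol extraction, on-column DNase and a stranded total RNA kit for small inputs were used, per the labels' protocols. Tools named in the submitters' processing notes, with no role given, include featureCounts 1.5.1, STAR 2.5.1, Trim Galore 0.4.1, FastQC 0.11.5, Picard and StringTie 1.3.3. The notes name a mouse build (GRCm38), but the identifiers are rat Ensembl identifiers. Not given in the sources used here are the alignment genome, the annotation, how strand was used and how reads of similar or overlapping genes were assigned, so counts of such genes are uncertain. The values the authors deposited are raw counts by gene and library in 1 table, not normalized.

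Differences were tested with edgeR 4.0.16 in R 4.3.3 (TMM factors, filterByExpr, robust quasi-likelihood F test) on the 2 groups compared alone, with Benjamini-Hochberg adjustment over all genes tested and calls at an adjusted p under 0.05. Standard errors are the log2 fold change divided by the square root of F. Printed CPM are counts divided by the library total and multiplied by 1e6, without TMM. Principal components and mean log2 CPM used TMM and a prior count of 2. The test was checked on simulated data with few changed genes and an equal spread in both groups. That check does not cover a comparison with 69.1% of genes called and an unequal spread. Replicate numbers follow deposition order. Within uninjured week 4 and within culture, no 2 libraries were alike within sampling noise (chi-square per degree of freedom 5.69 to 16.7). The other groups were not checked in this way.

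The comparison, gene lists and tests were chosen with earlier results of these data known. The rule for named genes had 3 parts: 46 fixed genes, the leading genes of 35 lists, and the largest changes with a gene symbol. With no symbols, the first parts and the scaling without mitochondrial genes were not run, and the last was applied by identifier, 2 each way. Alternatives were RLE and upper quartile factors, other low count filters, DESeq2 1.42.0, limma 3.58.1 (voom), all 7 groups in 1 fit, a test against a 1.5-fold change, thinning to the smallest library and leaving out each library.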

Additional observations from a re-analysis of the deposited data

Results flagged for a closer look

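The 2 genes that rose most against culture differed at week 4 between uninjured and injured cord (edgeR quasi-likelihood test on those 8 libraries, Benjamini-Hochberg adjusted). Both had been picked for high values in the same uninjured week 4 libraries. ENSRNOG00000004575 had a log2 fold change uninjured minus injured of 2.5, higher in 4 of 4 uninjured libraries than in any injured one (adjusted p = 7.93e-07). ENSRNOG00000004649 had one of 1.11, also without overlap (adjusted p = 0.00584), a call lost in a test against a fold change of 1.5 (edgeR adjusted p = 0.0549). At week 2 the means lay the other way, at 315.1 CPM injured and 212.8 uninjured for the first gene and 605.6 and 319 for the second, and that difference was not tested.

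Dixon's ratio was computed in 26 groups of 4 values. In 2 of them 1 library lay far from the other 3, and chance gives about 1.3 such groups. The 2 most abundant genes of each library took 26.0% of counts in culture replicate 1 and 21.7% to 22.0% in the other culture libraries, a ratio of 0.93. ENSRNOG00000002369 had 1 count in 1 uninjured week 3 library and 0 in the other 3, which fixes the ratio at 1.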

How the results depend on the processing

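The count of genes called between uninjured week 4 and culture stayed within 1.5 times of 8931 in 17 of 19 alternatives (7849 to 10657), with 8448 to 9159 when leaving out each library in turn. It was 4734 with all 7 groups in 1 fit and 5708 in a test against a fold change of 1.5. Against injured week 4, the count was 2396 with all 7 groups and 2649 against a fold change of 1.5, and 4338 to 5113 when leaving out each library. Between uninjured weeks 4 and 3 it ran from 1 to 2281 when leaving out each library. It was 2 against a fold change of 1.5, 1579 with no low count filter, 1178 with DESeq2 and 322 with limma voom, and 0 in the edgeR fit of all 7 groups, where 1050 genes had an unadjusted p under 0.05. Upper quartile factors gave 403 calls, 296 of them higher, against 225 of 435. The cause of these moves was not tested, except that a test against a fold change asks for larger differences. The 4 named genes kept direction and call against culture in all 19 alternatives. They were picked as the largest changes in the libraries that the alternatives reuse, so this outcome was close to fixed by the choice. ENSRNOG00000004649 lost its call against injured week 4 in the test against a fold change of 1.5 (edgeR adjusted p = 0.0549). The range was 5.3e-05, with no low count filter, to 0.0549 over the alternatives. Thinning to 2605188 counts left 7849 calls, 3992 higher. No paired analysis was possible because the labels give no replicate numbers. Scaling without mitochondrial genes was not run. Leaving out the 2 most abundant genes, chosen after the data were seen, gave 8950 calls. With 0 counts, a level of up to 0.211 CPM remains possible in the exposed group.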
